A study of Mus musculus with 18 samples.

Results

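Sorted and unsorted cochlear progenitors were compared at the start of differentiation by RNA sequencing. LCPs, taken here as Lgr5-positive cochlear progenitors, are epithelial cells of the mouse cochlea that are expanded in culture as organoids. At D0, the end of expansion, 2 libraries came from sorted cells (LCP sorted D0) and 2 from unsorted cells (LCP D0), so 4 of the 18 libraries of the series were compared. All 4 are labelled as organoids from primary cochlear tissue, with no strain, age or allele given for them in title or characteristics. Which cells the sort kept, and by which reporter or antibody, is not stated by the labels. Lgr5 and Ppme1 were taken as the progenitor markers of the sort, a role that the levels of Ppme1 given below go against. A protocol text shared by all 18 samples describes freshly dissected epithelium, with 2 ears of 1 pup per sample, and a treatment text, also shared by all, names tamoxifen and beta-catenin, which no title mentions. Nothing in the labels says whether replicates were separate cultures. The p-values measure the spread between replicate libraries pooled over all 9 groups of the series, not at D0 alone. This spread may be technical. Of 21697 protein-coding genes in the files, 12297 had a TPM, a length-corrected share of the library's transcripts, of at least 1 in at least 2 of the 4 libraries and were tested on log2(TPM + 1). The other 9400 genes did not pass this filter and were not tested.

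Lgr5 is a receptor for R-spondins, which strengthen Wnt signalling, and it marks supporting cells of the newborn cochlea that can divide and form hair cells in culture. Supporting cells hold their state through Notch signalling between neighbours, with Hes and Hey genes as targets and Sox2 as a core factor. Cells inside a growing organoid can lie far from the medium. When oxygen is low, hypoxia-inducible factors are stabilised and switch on genes of glucose uptake, glycolysis, pH control and mitochondrial turnover. Sorting dissociates the organoids into single cells before RNA is extracted.

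The libraries were first placed by their quality and dates. In the sorted libraries 15382 and 14381 genes reached 1 TPM, and in the unsorted ones 15160 and 14699. Mitochondrial genes took 9.18 and 8.84% of the TPM in the sorted and 4.27 and 6.01% in the unsorted libraries, and protein-coding genes took 67.4 and 60.4% against 68.4 and 68.9%. Per the labels, the replicate 2 libraries of both groups share an extraction date and a sequencing date. The sorted and unsorted replicate 1 libraries share neither date with each other, so sort and date cannot be told apart in that pair. By these labels the replicate 2 pair is the comparison within a batch, at 1 library against 1 and with no test. For several libraries of the series the labelled extraction date is later than the sequencing date. The dates are therefore used only as labels and may not mark real batches. Sorted replicate 2 stood apart: it had the lowest protein-coding share and, as given below, an Lgr5 level far under that of the other 3 libraries.

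Distances between sorted and unsorted libraries overlapped those between replicates of 1 group. The closest pair of the 4 libraries was sorted replicate 1 and unsorted replicate 2, which belong to different groups: their median absolute difference over genes was 0.249 on the log2 scale (Pearson's r 0.963, taken across genes and so not over independent points). The 2 unsorted replicates differed by 0.379 (r 0.946) and the 2 sorted replicates by 0.531 (r 0.927). The other 3 pairs of a sorted and an unsorted library lay at 0.417 (both replicate 1), 0.550 (both replicate 2) and 0.751 (sorted replicate 2 and unsorted replicate 1). Between the sorted replicates 2696 genes differed by over 1 on the log2 scale, against 1331 between the unsorted ones and 719 between sorted replicate 1 and unsorted replicate 2. Among all 18 libraries, the nearest to sorted replicate 2 was unsorted replicate 2 (r 0.930), and the nearest to unsorted replicate 1 was an LCP D2 library (r 0.964).

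**Figure D1:**
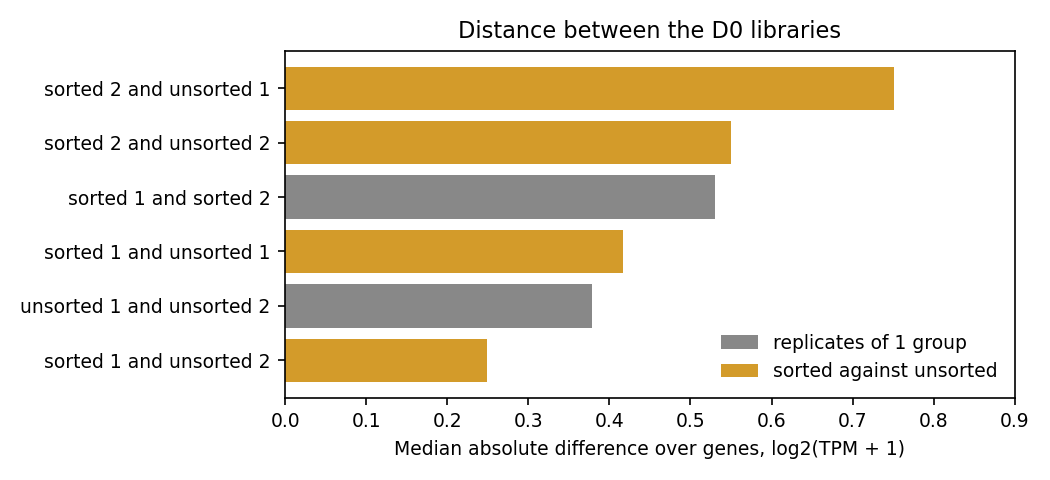
Median absolute difference over 12297 genes, in log2(TPM + 1), for each of the 6 pairs of D0 libraries; grey bars are replicates of 1 group, ochre bars pair a sorted with an unsorted library. The shortest bar, 0.249, joins sorted replicate 1 to unsorted replicate 2, and the longest, 0.751, joins sorted replicate 2 to unsorted replicate 1.

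Gene by gene, the difference between the group means was larger than the larger of both replicate differences for 2782 genes (22.6%). The share expected without a sort effect was not worked out, so this is not a count of genes changed by the sort. The median over all genes was -0.29 (sorted minus unsorted, log2), with -0.15 in the replicate 1 pair and -0.41 in the replicate 2 pair, and differences below are best read against that shift. Both sorted libraries lay below both unsorted ones for 3949 genes (32.1%) and above both for 1103 (8.97%). After scaling by the median log ratio these shares were 19.2% and 20.4%, and after quantile normalization 19.8% and 20.2%. Of the genes with no overlap, 1198 also differed by over 1, with 139 higher and 1059 lower in the sorted cells. In both same-numbered pairs at once, 61 genes were higher and 442 lower by over 1. By limma with Benjamini-Hochberg adjustment 1 of the 12297 genes passed the threshold of 0.05 (0.00813%), and it was lower in the sorted cells. Unadjusted p-values were under 0.05 for 1292 genes lower (10.5%) and 182 higher (1.48%) in the sorted cells. With median scaling this split was 585 lower and 657 higher, and with quantile normalization 715 and 703. The counts also rested on which sorted library was used. Without sorted replicate 2, limma called 0 genes (476 at an unadjusted p under 0.05), and sorted replicate 1 alone lay below both unsorted libraries for 39.1% of genes and above both for 25.3%. Without sorted replicate 1, it called 540 genes (522 lower, 18 higher), and sorted replicate 2 alone lay below both for 63.9% and above both for 18.2%.

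**Figure D2:**
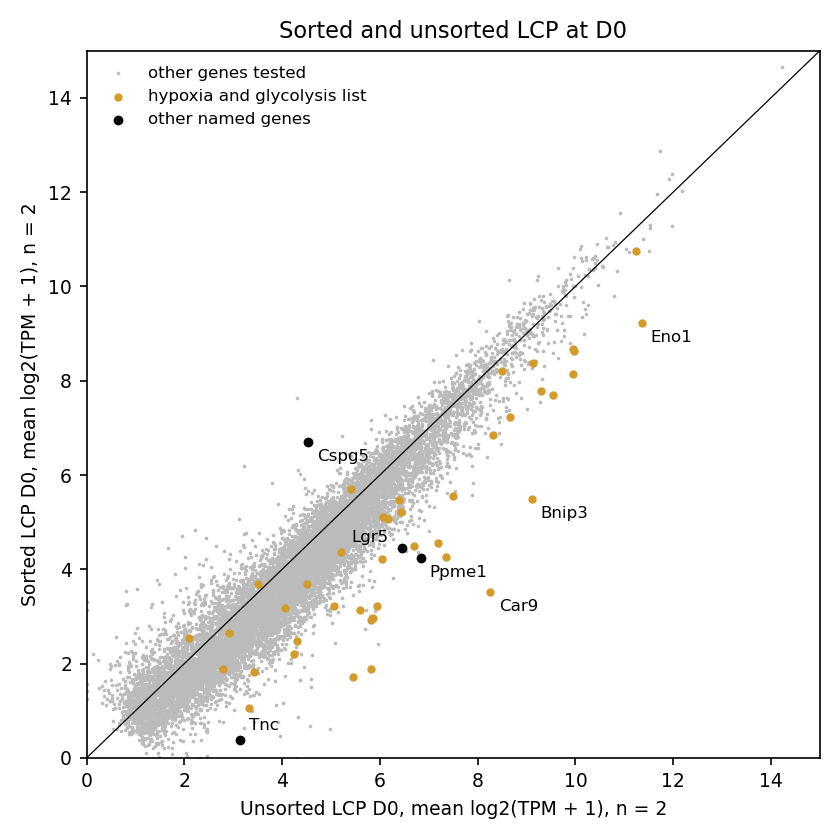
Mean log2(TPM + 1) of each of 12297 genes in sorted (vertical axis) against unsorted LCP D0 (horizontal axis), 2 libraries each; the line marks equal values and ochre points are the hypoxia and glycolysis list. Most genes sit close to the line, while Car9, Bnip3, Ppme1 and Tnc lie below it and Cspg5 lies above it.

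The gene past the threshold was Tnc (chr4:63959785-64047015, minus strand, mm10), which encodes tenascin-C, a glycoprotein of the extracellular matrix. It was at 0.372 and 0.232 TPM in the sorted and 8.16 and 7.57 TPM in the unsorted libraries. Tnc thus passed the filter of 1 TPM through the unsorted libraries alone, so its direction is not read. The groups did not overlap. Both sorted values lay under the 1 TPM that is added before taking logs, which narrows their spread on the log2 scale. With 0.1 added instead, the log2 difference was -4.33. The means were 0.302 ± 0.0992 (SD, n = 2) and 7.86 ± 0.418 TPM, a log2 difference of -2.77 (SE 0.33, limma adjusted p = 0.0154) that was nearly the same in the replicate 1 pair (-2.74) and the replicate 2 pair (-2.80). Even the unsorted D0 level was low for this gene: native cells sorted at postnatal day 2 held 76.1 to 219 TPM and D2 cultures 28.2 and 27.0 TPM. The call was lost without sorted replicate 2 (adjusted p = 0.0832), without unsorted replicate 1 (0.118) and without unsorted replicate 2 (0.128). In fits of the 4 libraries alone (0.233) or of the 12 culture libraries (0.151) it was lost too, and over all alternatives the adjusted p ranged from 1.99e-04 to 0.233. Of the 23 genes tested in the list of matrix proteases and secreted factors, to which Tnc belongs, 5 were lower and 2 higher with no overlap, near or under the shares of all genes (32.1% and 8.97%), with a median of -0.55.

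Ppme1 encodes the esterase that removes the methyl group from protein phosphatase PP2A (chr7:100326737-100372307, minus strand, mm10). It was at 20.2 and 15.6 TPM in the sorted and 153 and 85.4 TPM in the unsorted libraries, with no overlap. The log2 difference was -2.62 (SE 0.39, limma adjusted p = 0.0562), short of the threshold, with -2.86 and -2.38 in the replicate 1 and replicate 2 pairs. With the sequencing date as a term it passed (adjusted p = 0.0374), as it did without sorted replicate 1 (0.0252), with all gene biotypes (0.0313) and with median scaling (0.0480). Over all alternatives its adjusted p ran from 0.0155 to 0.578. The sorted D0 level was the lowest of the 9 groups: unsorted cultures at D2 to D10 held 89.5 to 170 TPM and sorted D10 cells 123 and 101 TPM. Among native cells, the Atoh1 sort held 158 and 103 TPM, the Lgr5 sort 31.5 and 32.6 TPM and the Sox2 sort 23.0 and 42.7 TPM. Ppme1 was higher in the Atoh1 than in the Lgr5 sort, so its level is not read here as a measure of progenitors. Both sorted D0 libraries thus lay below all 16 other libraries, with the native Lgr5 and Sox2 sorts nearest. C2cd3, the neighbour whose annotation overlaps the 5′ end of Ppme1, was at 7.45 and 8.10 TPM in the sorted and 11.9 and 5.93 TPM in the unsorted libraries, so its groups overlapped.

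Lgr5 (chr10:115450311-115587780, minus strand, mm10) did not separate the groups. It was at 92.5 and 4.14 TPM in the sorted and 112 and 66.7 TPM in the unsorted libraries. Sorted replicate 1 lay between the unsorted libraries, and sorted replicate 2 lay far below all 3. The log2 difference was -1.99 (SE 1.18, limma adjusted p = 0.470), and without sorted replicate 2 it was 0.10 (adjusted p = 1.00). The native Lgr5 sort held 44.6 and 30.1 TPM and sorted D10 cells 3.67 and 5.11 TPM, so sorted D0 replicate 2 was between the 2 sorted D10 libraries. Without sorted replicate 1 the difference was -4.09 (adjusted p = 0.0550).

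**Figure D3:**
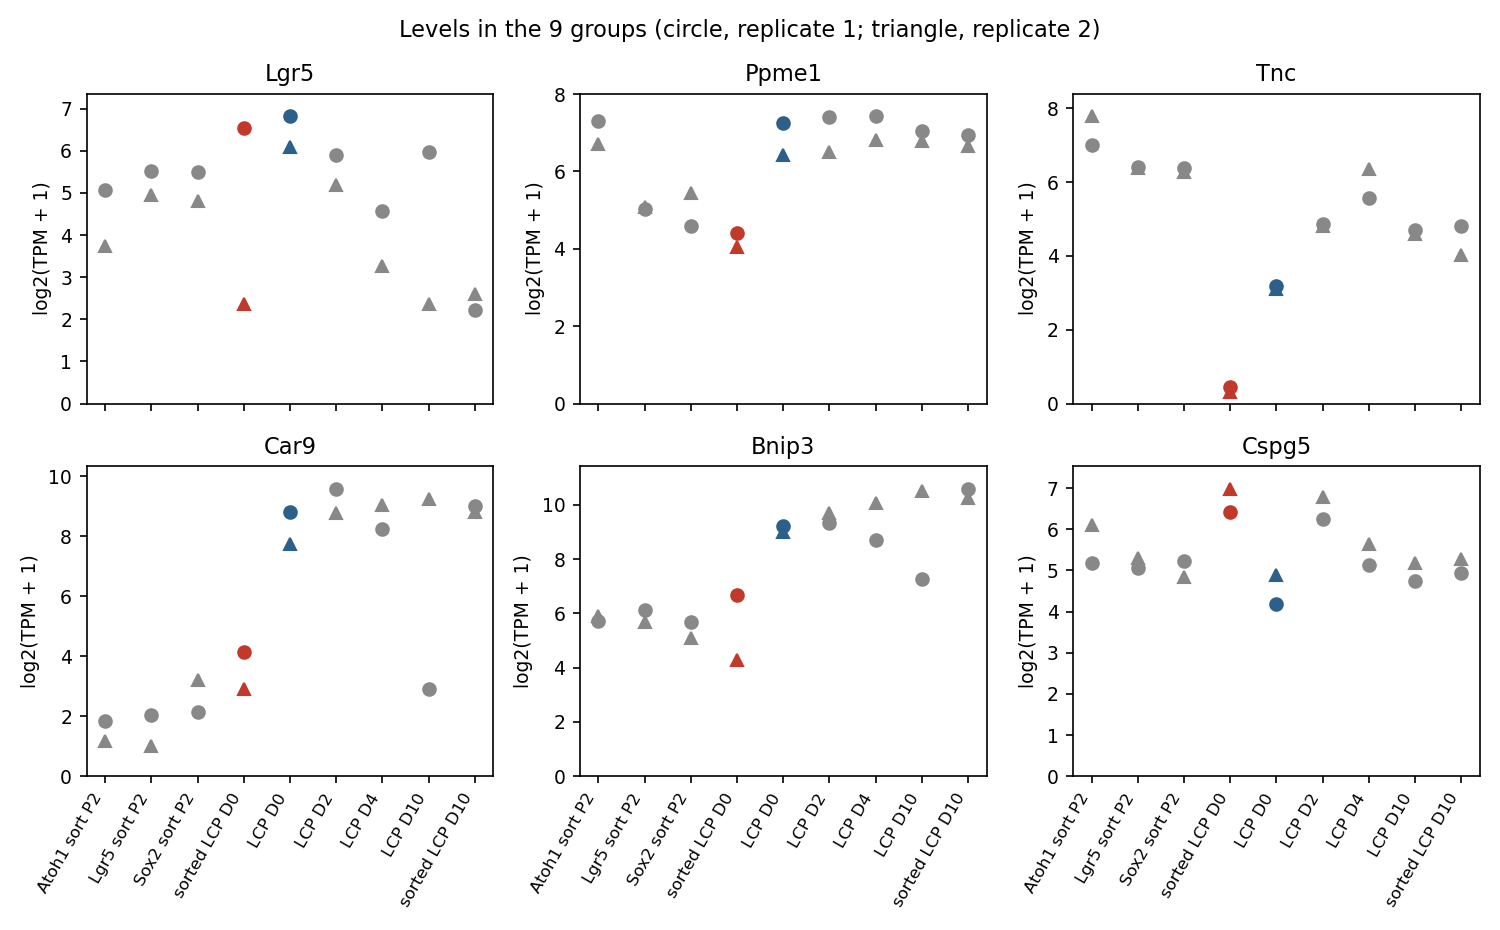
Level of 6 genes in log2(TPM + 1) in all 9 groups, with circles for replicate 1 and triangles for replicate 2; sorted LCP D0 is red and unsorted LCP D0 is blue. Ppme1, Tnc, Car9 and Bnip3 are lower in both sorted than in both unsorted D0 libraries and Cspg5 is higher, while the red points of Lgr5 lie apart from each other at 92.5 and 4.14 TPM.

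Among lists with at least 4 genes tested, that of hypoxia and glycolysis had the lowest median. All 41 genes of this list were tested: 34 were lower in both sorted than in both unsorted libraries, against 32.1% of all genes, and 0 were higher. The median was -1.61 (all genes -0.29), with -1.36 in the replicate 1 pair and -1.69 in the replicate 2 pair of shared dates. Unadjusted limma p-values were under 0.05 for 28 of the 41, all lower (10.5% of all genes), and 0 passed after adjustment over all genes, where 0 to 9 did in other fits. The 9 were called without sorted replicate 1. With median scaling the 28 became 18, all lower, where 585 of all 12297 genes were lower and 657 higher. With quantile normalization 21 of the list were lower and 1 higher, against 715 and 703 of all genes. Without sorted replicate 1 the median of the list was -1.75 (all genes -0.49). Without sorted replicate 2 it was -1.30 (all genes -0.089). The no-overlap count ranged from 33 to 37 when the values were scaled otherwise or each library was left out, and was 34 without sorted replicate 2 (with 3 then higher). Leaving a library out also raised the share of all genes that were lower, to between 39.1 and 63.9%. Members other than Eno1, Gapdh, Pfkp and P4ha1 are named here after their values were seen. With mitochondrial genes left out and the TPM rescaled, the median was -1.58 and the count 34.

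Car9, the cell-surface carbonic anhydrase that is a textbook target of hypoxia-inducible factor, led the list. It was at 16.6 and 6.49 TPM in the sorted and 443 and 211 TPM in the unsorted libraries, a log2 difference of -4.74 (SE 1.33, limma adjusted p = 0.336). In a limma fit of the 4 D0 libraries alone Car9 was 1 of 2 genes that passed. Native cells held 1.02 to 8.22 TPM of Car9, so sorted replicate 2 was within the native range, sorted replicate 1 above it and the unsorted libraries far above it. At D2 and D4 unsorted cultures held 303 to 759 TPM, sorted D10 cells 509 and 448 TPM, and the D10 unsorted libraries 6.59 and 605 TPM. Among the pH and lactate genes, Slc16a3, the lactate exporter, was at 8.11 and 0.497 TPM sorted against 34.5 and 87.5 TPM unsorted. Car12, a second carbonic anhydrase, was at 0.905 and 1.29 TPM against 8.14 and 9.81 TPM.

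Bnip3, which marks mitochondria for removal, was at 102 and 18.5 TPM in the sorted and 599 and 511 TPM in the unsorted libraries. Pdk1, which keeps pyruvate out of the mitochondria, was at 48.2 and 6.43 TPM against 215 and 123 TPM. For both genes the groups did not overlap, and sorted replicate 2 was the lowest library. Collagen prolyl hydroxylases, which use oxygen, had the same order: P4ha1 was at 14.03 and 4.79 TPM against 71.9 and 51.1 TPM, and P4ha2 at 13.4 and 3.04 TPM against 73.8 and 42.1 TPM. Vegfa, the vascular growth factor, was at 23.5 and 19.7 TPM against 215 and 48.7 TPM, so its unsorted libraries differed widely from each other. The oxygen sensors Egln1 (8.51 and 8.26 TPM against 36.1 and 29.0 TPM) and Egln3 (2.64 and 2.41 TPM against 11.5 and 8.25 TPM) were tighter.

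Glucose carriers and most, but not all, glycolytic enzymes of the list were among the 34. Of the carriers, Slc2a1 was at 46.5 and 28.1 TPM against 82.5 and 87.3 TPM, and Slc2a3 at 9.08 and 0.0770 TPM against 69.2 and 26.3 TPM. Pfkp, a phosphofructokinase, was at 40.5 and 12.2 TPM against 194 and 107 TPM (log2 difference -2.64, SE 0.51, limma adjusted p = 0.141). Eno1, the main enolase, was at 481 and 736 TPM against 3493 and 1968 TPM (-2.14, SE 0.40, adjusted p = 0.122). Its near-identical copy Eno1b can share reads with it, and the sum of both was 784 and 864 TPM against 3493 and 2332 TPM. At the end of the pathway, Ldha, a lactate dehydrogenase, was at 351 and 440 TPM against 899.98 and 1130.3 TPM, and Pkm, pyruvate kinase, at 476 and 350 TPM against 957 and 1036 TPM. Gapdh, also used as a housekeeping gene, had the smallest difference of the 34 non-overlapping genes, at 1693 and 1778 TPM against 3082 and 1881 TPM. The 7 members whose groups overlapped were Adm, Ddit4, Pfkfb3, Pfkfb4, Aldoc, Hilpda and Bhlhe40. Adm, adrenomedullin, which is also a hypoxia target, was at 6.70 and 3.42 TPM against 4.65 and 2.24 TPM.

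**Figure D4:**
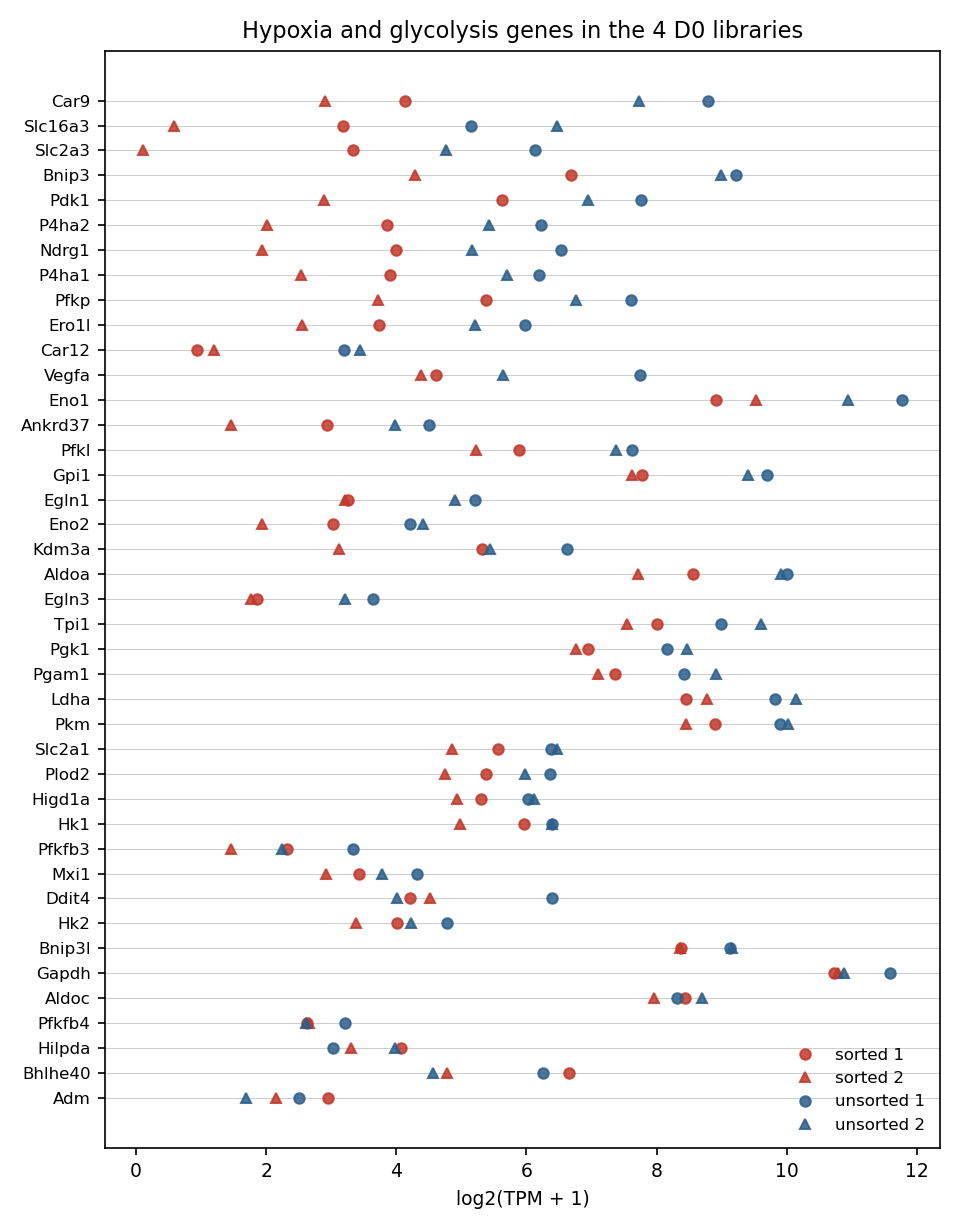
Each of the 41 hypoxia and glycolysis genes in the 4 D0 libraries, in log2(TPM + 1), ordered by the difference between group means; red is sorted, blue is unsorted, circles are replicate 1 and triangles replicate 2. For 34 genes both red points lie left of both blue points, and the 7 others, among them Adm and Hilpda, overlap.

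Over the series, the median level of the 41 genes was 38.6 and 12.2 TPM in the sorted D0 libraries and 82.9 and 61.7 TPM in the unsorted ones. It was 20.0 to 24.9 TPM in the 6 native libraries, 47.5 to 104 TPM in unsorted cultures from D2 to D10, and 102 and 88.3 TPM in sorted D10 cells. Sorted D0 replicate 1 was therefore above, and replicate 2 below, the native libraries, and both were below every other culture library. The mitochondrial share of the TPM was higher in both sorted than in both unsorted D0 libraries, as given above. In sorted D10 cells it was also high, at 9.09 and 10.9%, while the list was at 102 and 88.3 TPM. A link between this share and the list was not tested. In bulk RNA, fewer cells that express a gene and less RNA per cell cannot be told apart.

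Promoters of 4 of these genes are shown, since hypoxia-inducible factors are known to bind the letters ACGTG or GCGTG. The genes were chosen after their values were seen, and the stretches end before the gene's annotated start. The sequences are RefSeq promoter windows of GRCm38.p6, the same build as the files, written 5′ to 3′ on the gene's strand, and capitals mark either motif on either strand, where matches may overlap. Bnip3 lies at chr7:138909520-138909756 (minus strand), P4ha1 at chr10:59323046-59323295 (plus strand), Pfkp at chr13:6648778-6649021 (minus strand) and Pdk1 at chr2:71872974-71873223 (plus strand).
Bnip3: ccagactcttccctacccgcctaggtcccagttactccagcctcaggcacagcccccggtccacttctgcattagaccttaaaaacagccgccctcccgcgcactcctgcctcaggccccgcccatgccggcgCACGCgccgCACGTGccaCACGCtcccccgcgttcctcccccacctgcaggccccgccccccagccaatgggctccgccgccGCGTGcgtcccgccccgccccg
P4ha1: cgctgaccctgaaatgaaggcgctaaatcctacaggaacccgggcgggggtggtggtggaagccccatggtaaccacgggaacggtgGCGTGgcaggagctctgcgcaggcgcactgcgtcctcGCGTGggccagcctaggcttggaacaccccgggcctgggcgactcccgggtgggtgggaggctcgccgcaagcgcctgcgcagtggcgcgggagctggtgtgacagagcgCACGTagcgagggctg
Pfkp: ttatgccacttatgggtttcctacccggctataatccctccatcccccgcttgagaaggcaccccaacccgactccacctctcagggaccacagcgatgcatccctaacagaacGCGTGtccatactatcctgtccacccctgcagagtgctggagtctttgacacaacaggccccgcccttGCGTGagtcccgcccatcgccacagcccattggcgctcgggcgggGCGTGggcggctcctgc
Pdk1: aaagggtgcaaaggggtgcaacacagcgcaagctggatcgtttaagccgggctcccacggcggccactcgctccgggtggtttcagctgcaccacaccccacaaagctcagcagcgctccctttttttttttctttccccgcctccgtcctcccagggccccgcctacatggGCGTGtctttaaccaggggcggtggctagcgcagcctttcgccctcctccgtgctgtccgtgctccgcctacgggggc
Bnip3 had 5 matches in this stretch, P4ha1 and Pfkp 3 each and Pdk1 1. In windows of 250 bases, 38.6% of all 32851 RefSeq starts, 56.2% of the 12443 starts of genes tested and 74.5% of the 51 starts that matched the list (35 of its 41 genes) held either motif. For ACGTG alone the shares were 16.6%, 21.4% and 45.1%. These shares count starts and not genes. The list was put together from hypoxia and glycolysis genes, so its higher shares may follow from that choice and say nothing about the sort. A match is a description of the letters and not a binding site.

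Several other lists had medians under that of all genes, such as neurons (-0.77), other cochlear epithelium (-0.74) and Hippo and YAP targets (-0.63). The cholesterol synthesis and unfolded protein lists were among these, and for both the replicate 1 pair differed more than the replicate 2 pair. Of 24 cholesterol synthesis genes tested, 13 were lower and 1 was higher with no overlap, against 32.1% and 8.97% of all genes (median -0.80, with -1.09 in the replicate 1 pair and -0.40 in the replicate 2 pair). Srebf2, the transcription factor of the pathway, was at 27.7 and 28.4 TPM sorted against 63.6 and 46.5 TPM unsorted, with a log2 difference of -0.93 (SE 0.31, limma adjusted p = 0.370). Of 32 genes of the unfolded protein and integrated stress response 15 were lower and 0 higher with no overlap, against the same 32.1% and 8.97% (median -0.78, pairs -1.09 and -0.24). Canx, an endoplasmic reticulum chaperone, was at 791 and 327 TPM against 1287 and 1047 TPM, and Hsp90b1 at 2584 and 2367 TPM against 5130 and 3129 TPM. By summed level of either list, unsorted replicate 1 was the highest of the 4 libraries. It held 1046 TPM of Herpud1, which acts in degradation of misfolded proteins, against 187, 135 and 45.4 TPM in sorted replicates 1 and 2 and unsorted replicate 2. Atf3, a stress-induced factor, was at 446 TPM there and 98.3, 77.8 and 22.8 TPM in the same 3 libraries.

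In the interferon and the Lin28, Hmga2 and Igf2bp lists 0 genes passed by limma. At an unadjusted limma p under 0.05, 4 of 27 and 5 of 11 genes were lower and 0 higher. Of all genes 10.5% were lower and 1.48% higher by that measure. Of 27 interferon and antigen presentation genes 14 were lower and 0 higher with no overlap, against 32.1% and 8.97% of all genes (median -0.71, pairs -0.62 and -0.70). Usp18, which removes the ubiquitin-like protein Isg15, was at 0.640 TPM and listed at 0 in the sorted and at 4.34 and 2.83 TPM in the unsorted libraries (log2 difference -1.82, SE 0.36, limma adjusted p = 0.141). It passed the filter through the unsorted libraries alone, so its direction is not read. Isg15 itself was at 4.45 and 3.13 TPM against 39.6 and 8.69 TPM. Of 11 genes of the Lin28, Hmga2 and Igf2bp list 7 were lower and 0 higher by the same measure (median -0.94). Igf2, the fetal insulin-like growth factor, was at 2.95 and 1.43 TPM against 13.4 and 13.7 TPM (-2.23, SE 0.38, adjusted p = 0.0831). It was low in sorted D10 cells too, at 2.45 and 1.23 TPM against 11.2 and 10.14 TPM in unsorted D10 cells, a difference of -2.07 (SE 0.38) that passed the test there (adjusted p = 0.0201). Igf2bp1, an RNA-binding protein of fetal tissue, was at 3.91 and 0.303 TPM against 8.50 and 10.99 TPM at D0.

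Further genes taken by the naming rule were lower with no overlap and did not pass. Slitrk6, a membrane protein needed for innervation of the inner ear, was at 1.10 and 0.199 TPM against 34.0 and 15.1 TPM (log2 difference -3.90, SE 0.72, limma adjusted p = 0.122). Igfbp3, an IGF-binding protein, was at 0.785 and 0.859 TPM against 34.5 and 10.4 TPM, and it passed the filter through the unsorted libraries alone. Both of these genes were at 0.395 to 4.43 TPM in all unsorted culture libraries from D2 to D10, so here the unsorted D0 libraries were the high ones. The histone demethylase Kdm4b was at 24.6 and 6.78 TPM against 103 and 55.8 TPM, and Lasp1, an actin-binding protein, at 46.1 and 31.7 TPM against 83.2 and 86.3 TPM. Lasp1 was lower at D10 as well (log2 difference -2.13, SE 0.24, adjusted p = 0.00779 in that comparison). Suz12, a subunit of the Polycomb repressive complex PRC2, was at 16.1 and 12.9 TPM against 49.1 and 34.0 TPM. H2-Q10 (3.15 and 2.94 TPM against 21.8 and 12.1 TPM) belongs to a family of near-identical major histocompatibility genes, so its value is uncertain. Erlec1 and Ccdc91 were lower by -1.22 and -1.58.

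On the deposited scale 182 genes were higher in the sorted cells by limma's unadjusted p under 0.05, and 0 passed. With median scaling 657 were higher by that measure and 2 passed. Cspg5, a chondroitin sulfate proteoglycan of neural tissue, was at 85.1 and 125 TPM in the sorted and 17.3 and 28.5 TPM in the unsorted libraries. Its log2 difference was 2.16 (SE 0.37, limma adjusted p = 0.0831), with 2.23 and 2.09 in the same-numbered pairs, and its adjusted p ranged from 0.0122 to 0.974 over the alternatives. Native cells held 27.5 to 68.1 TPM and D2 cultures 75.6 and 110 TPM of Cspg5, so the unsorted D0 libraries were near the low end of the series. Mia, a small secreted protein of cartilage, was among the 10 most abundant genes, at 6047 and 9421 TPM against 2785 and 4127 TPM (log2 difference 1.15, SE 0.64, adjusted p = 0.456). Usp34, a deubiquitinase that acts in Wnt signalling, was at 35.3 and 40.9 TPM against 16.4 and 16.8 TPM. Il15ra, the receptor for interleukin 15, was at 30.9 and 22.3 TPM against 6.87 and 10.6 TPM, and Capg, an actin-capping protein, at 97.1 and 219 TPM against 67.1 and 78.7 TPM. Xlr3a and Xlr3b, near-identical copies on the X chromosome whose split of reads is uncertain, had log2 differences of 1.85 and 2.33. Hist1h2ag, H2-DMb1, Izumo4, Bola3 and Ddrgk1 were higher by 0.74 to 1.61.

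Genes encoded in mitochondria and genes of DNA replication made up the lists with the most members higher. Of 13 mitochondrial genes 8 were higher with no overlap, against 8.97% of all genes (median 0.69). The median was 1.16 in the replicate 1 pair and 0.11 in the replicate 2 pair, where all genes had medians of -0.15 and -0.41. mt-Nd4, a subunit of complex I, was at 688 and 547 TPM against 216 and 313 TPM (log2 difference 1.24, SE 0.35, limma adjusted p = 0.336). The 42 nuclear genes of oxidative phosphorylation had a median of 0.10, with 3 higher and 5 lower, against 8.97% and 32.1% of all genes. Of 41 genes of S phase and replication 13 were higher and 2 lower, against the same 8.97% and 32.1% (median 0.23, pairs 0.26 and 0.34). Tk1, thymidine kinase, was at 23.5 and 65.4 TPM against 15.5 and 20.2 TPM (1.11, SE 0.45, adjusted p = 0.393). Pcna, the replication clamp, was at 84.3 and 92.2 TPM against 63.4 and 72.8 TPM, while Mcm2 overlapped at 167 and 123 TPM against 139 and 163 TPM. Of 43 mitotic genes 2 were higher and 12 lower, near or under the 8.97% and 32.1% of all genes (median -0.12). Mki67, a marker of dividing cells, was at 4.12 and 10.97 TPM against 5.15 and 4.75 TPM and overlapped. The cell cycle inhibitors Cdkn1b and Cdkn1c overlapped as well, at log2 differences of -0.46 and 0.29.

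**Figure D5:**
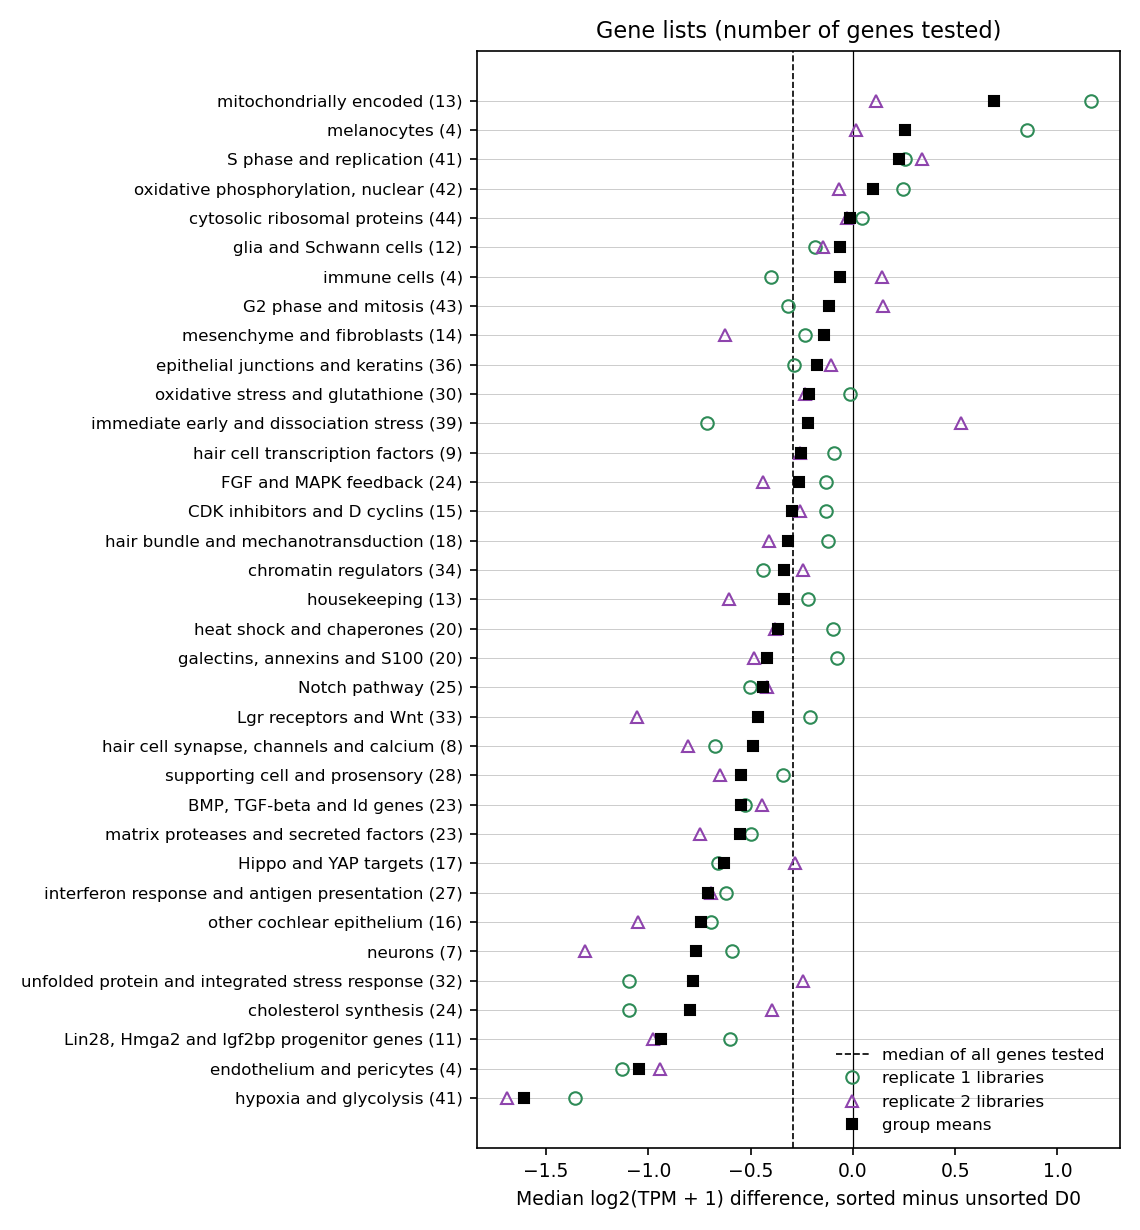
Median log2(TPM + 1) difference, sorted minus unsorted D0, of each gene list with at least 4 genes tested (numbers in brackets); black squares are group means, green circles the replicate 1 and purple triangles the replicate 2 libraries, and the dashed line is the median of all genes at -0.29. The hypoxia and glycolysis list lies lowest at -1.61, with both pairs near it, while the mitochondrially encoded list lies highest at 0.69 with its pairs at 1.16 and 0.11.

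Of 28 supporting cell and prosensory genes tested 8 were lower and 2 higher with no overlap, near the 32.1% and 8.97% of all genes (median -0.55). By limma 0 of them passed (3 lower and 1 higher at an unadjusted p under 0.05, against 10.5% and 1.48% of all genes). Sox2 was at 30.1 and 16.5 TPM against 89.6 and 35.0 TPM (log2 difference -1.29, SE 0.66, limma adjusted p = 0.432). Gata3, a transcription factor of the prosensory domain, was at 373 and 183 TPM against 999 and 407 TPM. Epcam, an epithelial adhesion molecule, overlapped at 508 and 665 TPM against 440 and 543 TPM. Otoa, otoancorin of the apical supporting cell surface, went the other way, at 262 and 77.2 TPM against 62.8 and 48.7 TPM. Of 25 Notch genes 6 were lower and 1 higher with no overlap, no larger shares than the 32.1% and 8.97% of all genes (median -0.44). Hes1 was at 1571 and 929 TPM against 1982 and 689 TPM, and Hes5 at 56.5 and 2.14 TPM against 153 and 21.8 TPM. Hey1 was at 262 and 103 TPM against 721 and 95.5 TPM, so all 3 targets overlapped. In both groups replicate 1 had more of these targets than replicate 2.

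Of 33 Lgr and Wnt genes tested 14 were lower and 2 higher with no overlap, against 32.1% and 8.97% of all genes (median -0.46, pairs -0.21 and -1.06). Lgr4, the relative of Lgr5, was at 7.33 and 2.39 TPM against 16.4 and 11.2 TPM (log2 difference -1.45, SE 0.47, limma adjusted p = 0.370). Ctnnb1, beta-catenin, was at 287 and 97.5 TPM against 303 and 225 TPM and overlapped. Axin2, the common Wnt target, was at 2.47 and 3.37 TPM against 3.15 and 5.56 TPM. Of 9 hair cell transcription factors tested 4 were lower and 1 higher with no overlap, against the same 32.1% and 8.97% of all genes. Atoh1, which starts hair cell differentiation, was at 0.676 and 0.0105 TPM against 2.76 and 5.79 TPM (-1.96, SE 0.66, adjusted p = 0.371). Pou4f3, a later hair cell factor, was at 0.0664 TPM and listed at 0 in the sorted and at 0.988 and 2.02 TPM in the unsorted libraries, and it did not pass the filter. Both factors were under 1 TPM in both sorted libraries, where 1 TPM is the pseudocount. Atoh1 passed the filter through the unsorted libraries alone, so its direction is not read.

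The genes with the largest replicate differences among the sorted cells are given as a description. Gjb6, connexin 30 of supporting cells, was at 334 TPM in replicate 1 and 5.83 TPM in replicate 2, where the unsorted libraries held 323 and 170 TPM. Nrxn3, a neurexin, was at 185 and 3.35 TPM, and Prss56, a serine protease, at 35.6 and 0.0308 TPM. Ajap1, a junction protein, was at 31.4 TPM in replicate 1 and listed at 0 in replicate 2. In the other direction Anxa1, an annexin, was at 0.140 and 79.7 TPM, and Aqp5, a water channel, at 1.38 and 68.9 TPM. Sorted replicate 2 thus held less Lgr5, Gjb6 and Nrxn3 and more Anxa1 and Aqp5 than sorted replicate 1. Jag1, the Notch ligand of prosensory cells, had the same order, at 120 and 5.59 TPM.

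Markers of cell types outside the sensory epithelium ranged from lists mostly under 1 TPM to abundant ones. Of 27 immune markers 22 were under 1 TPM in every one of the 4, with C1qa listed at 0 throughout, and the summed level was 38.3 and 10.17 TPM sorted against 70.4 and 50.0 TPM unsorted. H2-Ab1, an antigen-presenting molecule, made up most of it, at 31.7 and 4.68 TPM against 64.2 and 45.8 TPM. Of 19 endothelial and pericyte markers 15 were under 1 TPM, with Cdh5 listed at 0, and the sum was 40.2 and 44.9 TPM against 57.6 and 76.9 TPM. Only 4 of the 19 were tested, and some of them, such as Plvap, passed the filter through the unsorted libraries alone, so their direction is not read. Plvap, of fenestrated vessels, was at 0.0793 and 0.236 TPM against 1.39 and 3.64 TPM. Of 12 erythroid markers found 0 were tested, with sums of 1.43 to 7.08 TPM. Of 34 mesenchymal markers 14 were tested, 16 were under 1 TPM in all 4 libraries, and the sums overlapped at 1907 and 852 TPM against 1288 and 1860.5 TPM. Col1a1, the type I collagen chain of fibroblasts, was at 0.977 and 0.236 TPM against 5.19 and 3.49 TPM (-1.75, SE 0.33, limma adjusted p = 0.122). It passed the filter through the unsorted libraries alone, so its direction is not read either. Twist2 was listed at 0, and Dcn, decorin, overlapped at 895 and 421 TPM against 737 and 803 TPM. The neuronal list, with 13 of 24 markers under 1 TPM, summed to 1331 to 1812 TPM, most of it Uchl1. In the glial list 6 of 21 were under 1 TPM. Neuronal, glial and melanocyte lists had 7, 12 and 4 genes tested, with 4, 4 and 0 lower and 1, 3 and 1 higher with no overlap. Of all genes 32.1% were lower and 8.97% higher by this measure. The part of these cell types in the results was not tested. Of 39 genes of the immediate early and dissociation stress list 3 were lower and 1 higher with no overlap, under the 32.1% and 8.97% of all genes. The median of this list was -0.71 in the replicate 1 pair and 0.53 in the replicate 2 pair. Fos overlapped at 169 and 175 TPM against 101 and 182 TPM.

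The sort difference at D0 was last set beside the same difference at D10, from other libraries. Among the same 12297 genes 389 passed at D10 (3.16%), 106 higher and 283 lower in sorted cells, against 1 at D0. The difference between the 2 sort differences was itself tested in the same fit, and 0 genes passed, with 1259 at an unadjusted p under 0.05 by limma and a smallest adjusted p of 0.0966. That gene was Pfkp, at -2.64 for the sort at D0 and 1.47 (SE 0.51, adjusted p = 0.117) at D10, a difference of 4.10 (SE 0.73). The hypoxia and glycolysis list had a median of -1.61 at D0 and 0.55 at D10. Of its 41 genes 0 passed at D10, against 3.16% of all genes. The change from D0 to D10 had an unadjusted p under 0.05 and was positive for 25 of its 41 genes, against 6.03% of all genes, and was negative for 0, against 4.21%. Its median was 1.99, and 0.09 over all genes. The low D0 values for which this list was singled out enter the change, so a positive change partly restates them. Without replicate 2 of LCP D10, 226 genes passed this test of the difference, and without sorted D0 replicate 1, 19 did. Tnc had a sort difference of -0.24 (SE 0.33) at D10, which differed from that at D0 by 2.53 (SE 0.47, adjusted p = 0.122). Ppme1 had -0.10 (SE 0.39) at D10 and a change of 2.52 (SE 0.56, adjusted p = 0.178). Cspg5 had 0.14 (SE 0.37) at D10 and a change of -2.02 (SE 0.53, adjusted p = 0.261).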

How the data were processed

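RNA from mouse cochlear cells was amplified with a SMARTer V4 kit and read from 1 end, per the labels' protocols. These kits do not mark strand, so overlapping antisense genes cannot be told apart. Each deposited file gives TPM for 1 library, scaled by the authors to the same total. STAR, FastQC, Salmon, DESeq2 and mm10 are named, without roles or versions, per the submitters' processing notes; annotation and filters are not stated there. TPM keeps no depth, so counting error is unknown and no intervals are given. A higher level of some genes lowers the others.

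Of 47729 identifiers 47310 matched GENCODE M21, the source of names, classes and coordinates. Differences in log2(TPM + 1), which understates changes of low genes, were tested two-sided with limma 3.58.1 (R 4.3.3; 9 group means, trend, 9 residual and 4.3 prior degrees of freedom) in all 18 libraries, with Benjamini-Hochberg adjustment and a threshold of 0.05. A 2 against 2 exact permutation test cannot go below p = 0.333 and was not used. Tables used Python 3.11.15, pandas 2.3.3 and numpy 2.4.6. The fit was also run on simulated data with independent noise and no library set apart. Sorted replicate 2 stood apart in the real data, so that run is not used to read the counts.

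The compared libraries, the 37 gene lists and the naming rule were chosen with earlier results of these data known. The rule takes up to 12 non-overlapping genes per direction (at least 10 TPM in the higher group, without ribosomal protein genes and genes lacking a standard name), filled by the smallest p, 14 set genes, for each list up to 3 members past the threshold, the member with the smallest p and the most abundant one, the 10 most abundant genes and, per group, the 6 with the largest replicate spread. Some of these are not reported. List members beyond the rule were named after their values were seen. Same-numbered libraries correlated weakly in their deviations (0.138), and only number 2 marks shared dates, so numbers were not taken to pair samples. Alternatives were other scalings, filters, pseudocounts, sets of libraries, a date term, a replicate block and leaving out each library.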

Additional observations from a re-analysis of the deposited data

Results flagged for a closer look

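The gene classes that were not tested took more of the TPM in both sorted than in both unsorted D0 libraries for 5 of the 7 groupings looked at. They took 32.6 and 39.6% in the sorted and 31.6 and 31.1% in the unsorted libraries, all classes together. Non-coding mitochondrial genes, the ribosomal and transfer RNAs of the organelle, took 3.69 and 4.80% against 1.45 and 1.98%. Long non-coding genes took 1.56 and 1.52% against 1.46 and 1.32%, genes still to be experimentally checked (class TEC) 0.875 and 0.911% against 0.665 and 0.576%, and unmatched identifiers 1.82 and 2.02% against 1.57 and 1.60%. Pseudogenes (16.7 and 19.7% against 14.7 and 18.6%) and small RNA genes (7.84 and 10.5% against 11.6 and 6.9995%) overlapped. These shares were given attention because they lie outside the tested genes and above the unsorted libraries, and they were not tested.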

How the results depend on the processing

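The count of genes past the threshold at D0, 1 in the fit of 18 libraries, was 2 with the 4 libraries alone, 0 with the 12 culture libraries (1116 at an unadjusted p under 0.05 by limma), 8 with the sequencing date as a term, 9 with no filter on low values, 18 with all gene biotypes, 3 with quantile normalization and 6 with median scaling. With a replicate block it was 42 (6 higher, 36 lower), among them Ppme1, Cspg5, Igf2 and Eno1; the numbers do not pair the samples by their labels. Leaving out single libraries gave 0 to 540, the 540 without sorted replicate 1 and 0 without each of the other 3 (419 to 1716 at an unadjusted p under 0.05), where 1 library of a group stands alone and is assumed to vary like the other groups. The count was 1 in the remaining fits. The count for the change of the sort difference from D0 to D10, 0 in the fit of 18, was 1 with a pseudocount of 0.1, 5 with no filter and 8 with all biotypes, and 0 to 226 leaving out single libraries; 0 with a replicate block. The 1198 non-overlapping genes over 1 became 1888 with all biotypes and 736 with median scaling (342 higher, 394 lower). The count of 34 hypoxia and glycolysis genes ranged from 33 to 37. Over 552 refits of named genes 27 gained and 5, all of Tnc, lost the call, and 7 of genes far from the threshold changed sign. Leaving out single libraries, the log2 difference ranged from -4.09 to 0.10 for Lgr5, -0.22 to 1.01 for Mki67, -0.71 to 0.81 for Hes1, -2.13 to 0.78 for Hey1 and -0.085 to 0.76 for Fos, which was at -0.40 with the sequencing date. The hypoxia and all-gene alternatives were chosen after seeing the data, and the cause of these changes was not tested. With 2 libraries a group and depth unknown, genes at a few TPM carry an error that these files do not give.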
